A study of Danio rerio with 6 samples.

Results

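V(D)J recombination is the cutting and rejoining of antigen receptor gene segments in developing lymphocytes. Rag1 and Rag2 form the recombinase that recognises and cuts the recombination signals beside each segment, and terminal transferase, encoded by dntt, adds untemplated nucleotides to the ends before they are joined. These genes are used by immature T and B cells. The joining itself is done by the end-joining machinery that repairs double-strand breaks in all cells: the Ku heterodimer of xrcc6 and xrcc5 binds the ends, the kinase encoded by prkdc and the nuclease Artemis, encoded by dclre1c, open the sealed hairpins, and the ligase encoded by lig4 closes the break with its partners from xrcc4 and nhej1. The 10 genes were taken by name from a count table of 32105 zebrafish genes, and all 10 were found by symbol and passed the filter on low counts. They were divided into 3 genes restricted to lymphocytes (rag1, rag2 and dntt) and 7 general end-joining genes.

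Counts came from 6 libraries of zebrafish at 5 days post fertilization (dpf). The IT325 group was 3 libraries from larvae homozygous for the ikzf1 allele t24980, a nonsense allele whose product keeps the DNA-binding zinc fingers of the transcription factor Ikaros and lacks the C-terminal ones. The wild-type group was 3 libraries from homozygous wild-type siblings, and both groups were on a mixed wild-type strain background. Per the study's methods each library was made from an individual fish that was genotyped from its own homogenate. Libraries held 40732782 to 52954765 counts in mutants and 37390073 to 53279243 counts in wild type. The transcript of ikzf1 was counted at 1073, 1730 and 1145 CPM (counts scaled to 1000000 per library) in mutants, against 282, 321 and 311 CPM in wild-type siblings, and the counts do not show the base at the mutated site.

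The labels give the tissue as the whole body. Of 6 matched skeletal muscle markers and 6 matched lens and retina markers, all 12 averaged under 1 CPM over the libraries, and the muscle actin gene acta1b had no count in any library. Neural markers were under 1 CPM for 5 of 6, and the exception, the myelin gene mbpa, ranged from 0.0495 to 16.4 CPM over the 6 libraries. Of epidermal markers 5 of 7 were under 1 CPM, as were 2 of 6 liver markers and 3 of 7 kidney tubule markers. The sums were 7.55 to 8.37 CPM in mutants and 5.74 to 5.80 CPM in wild type for epidermis, 1.89 to 26.0 CPM in mutants and 6.29 to 24.4 CPM in wild type for liver, and 9.77 to 14.8 CPM in mutants and 15.9 to 27.2 CPM in wild type for kidney tubule. In contrast, the 8 matched erythroid markers summed to 19260 to 26524 CPM in mutants and 5532 to 8824 CPM in wild type. The 8 matched B cell markers summed to 79.0 to 135 CPM in mutants and 642 to 716 CPM in wild type. Muscle, lens, retina and most neural markers were thus at or near 0 in both groups. Liver, kidney and some epidermal markers were low, and blood markers were abundant. Whether the libraries represent the whole body is therefore in doubt. The stage and the single fish per library are as the labels and the study's methods give them, and neither was tested. In such bulk libraries, fewer cells of a type and less RNA per cell cannot be told apart.

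Setting the mutants against their siblings addresses whether recombination and repair transcripts change when Ikaros is truncated. All 3 lymphocyte-restricted genes were lower in mutants, by 5.45-fold to 8.90-fold. Of the 7 end-joining genes, prkdc was lower by 1.34-fold, nhej1 was higher by 1.33-fold, and 5 did not pass the test. The CPM of the groups, scaled by the library total alone, did not overlap for 7 of the 10 genes, against 51.4% of all genes tested. Calls were made by edgeR's quasi-likelihood test at an adjusted p of 0.05 over all 17828 genes tested, of which 16.4% were called lower, 17.5% higher and 33.9% in either direction. In this comparison 1204 genes, or 6.75% of those tested, were called and at least 2-fold lower, rag1, rag2 and dntt among them. At least 8-fold lower and called were 173 genes, or 0.97%, rag1 and rag2 among them. Rag1, at 8.05-fold, only just met this cut. It missed the cut in several alternatives, among them the fit without mutant replicate 1, at -2.68 on the log2 scale, and DESeq2, at -2.99. Rag2 also missed it in a fit without 1 library, at -2.82. With DESeq2, which called 36.5% of the genes it tested, the calls of all 10 genes were the same. At an adjusted p of 0.01, where edgeR called 19.2%, rag1, rag2, dntt and prkdc remained.

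**Figure D1:**
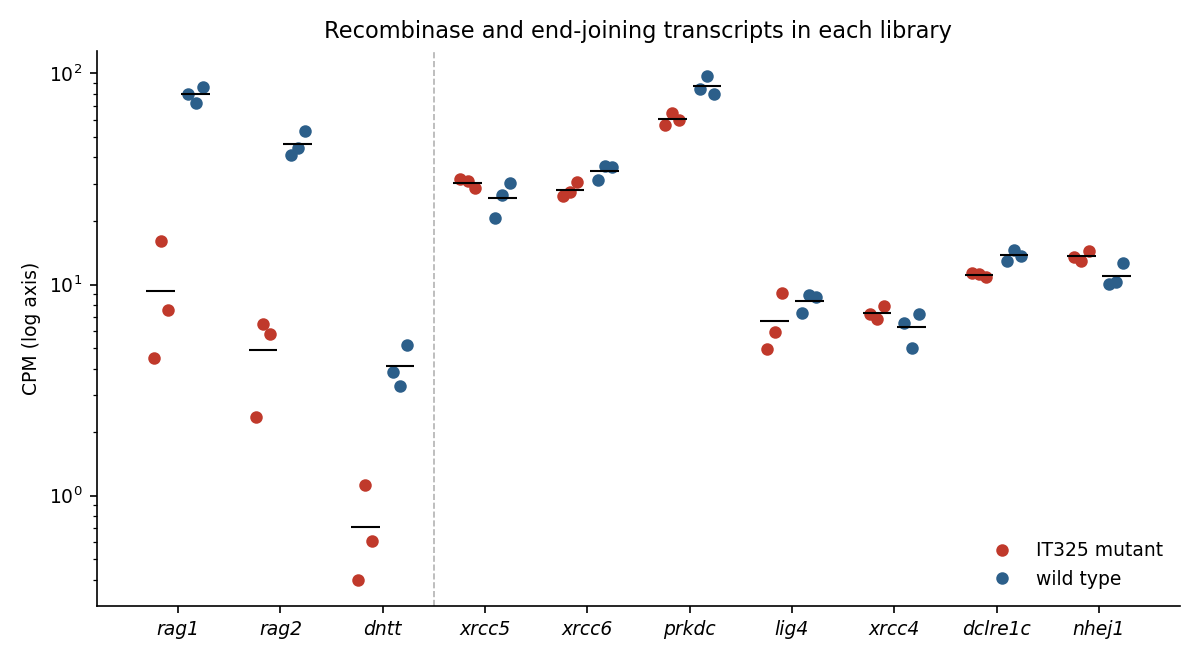
CPM (log axis) of the 10 genes in each library, with the 3 IT325 mutant libraries (red) left of the 3 wild-type libraries (blue) of each gene. Points are libraries, black lines are group means, and the dashed line parts the lymphocyte-restricted genes from the end-joining genes. The groups are far apart for rag1, rag2 and dntt, and close or overlapping for the other 7.

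Rag1 (ENSDARG00000052122), the subunit with the catalytic centre of the recombinase, gave 4.49, 16.0 and 7.59 CPM in mutants, against 80.1, 72.7 and 86.5 CPM in wild-type siblings. The highest mutant library, replicate 2, was well below the lowest wild-type library. The spread was wide among mutants, with a coefficient of variation of 63.6%, against 8.71% in wild type. The log2 fold change was -3.01 with an SE of 0.458 (edgeR adjusted p 0.0056), which leaves 12.4% of the wild-type level with a 95% confidence interval from 5.60% to 27.6%.

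Rag2 (ENSDARG00000052121), the subunit that helps Rag1 to bind and cut and that reads a histone mark of active chromatin, was at 2.36, 6.53 and 5.86 CPM in mutants, against 40.9, 44.1 and 53.6 CPM in wild-type siblings. Mutant replicate 1 was the lowest library for rag2, as it was for rag1. The log2 fold change was -3.15 with an SE of 0.346 (edgeR adjusted p 9.52e-04), or 11.2% of the wild-type level (95% confidence interval 6.29% to 20.1%). Counts of rag1 per count of rag2 were 1.90, 2.45 and 1.30 in mutants and 1.96, 1.65 and 1.62 in wild type. These ratios overlapped between the groups.

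Dntt (ENSDARG00000104792) was the least counted of the 10 genes, with 21, 46 and 26 counts in mutants, against 144, 133 and 276 counts in wild type. That is 0.397, 1.13 and 0.609 CPM in mutants, against 3.85, 3.29 and 5.18 CPM in wild-type siblings, with no overlap. The log2 fold change was -2.45 with an SE of 0.382 (edgeR adjusted p 0.00158), or 18.4% of the wild-type level (95% confidence interval 10.03% to 33.6%). Its interval overlapped those of rag1 and rag2. Counts of rag1 per count of dntt were 11.3, 14.2 and 12.5 in mutants and 20.8, 22.1 and 16.7 in wild type, lower in every mutant library. In the reference annotation dntt lies on the chromosome of ikzf1 and rag1 and rag2 do not. In the order of the counted genes, 642 rows stand between ikzf1 and dntt. Larvae homozygous for the allele also share the DNA linked to it, whose part in the change of dntt was not tested.

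Within the mutants, replicate 2 had the highest level of all 3 lymphocyte-restricted genes and replicate 1 the lowest. Leaving out 1 library at a time kept all 3 called. The log2 fold change of rag1 was -3.62 without mutant replicate 2 and -2.68 without mutant replicate 1, a range that exceeds the change of any end-joining gene at both ends.

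**Figure D2:**
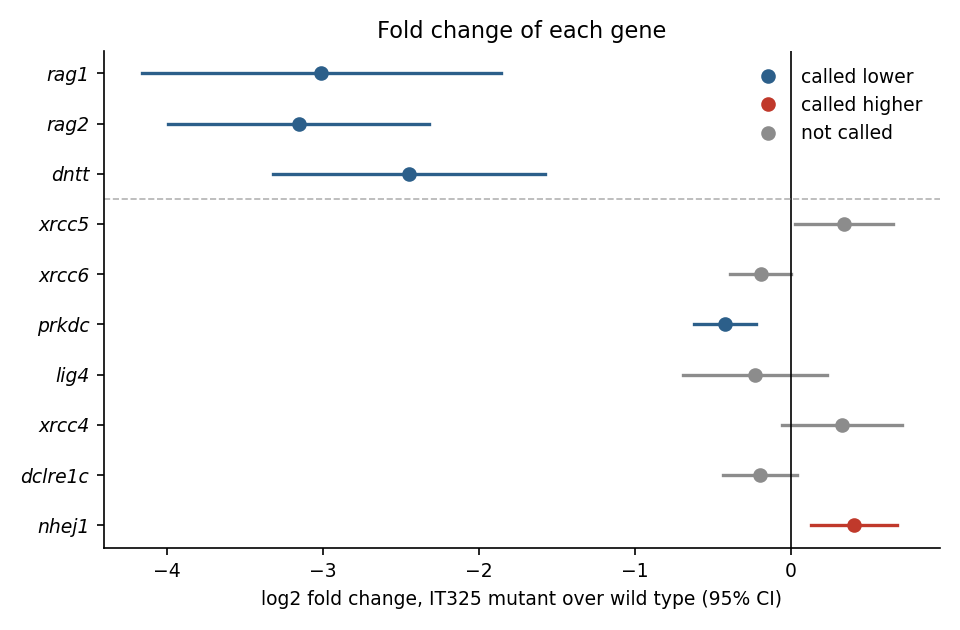
Log2 fold change of each gene, IT325 mutant over wild type, with its 95% confidence interval from the edgeR fit. Blue genes were called lower, red genes higher, and grey genes were not called. The intervals of rag1, rag2 and dntt lie between -4.16 and -1.58 and those of the end-joining genes between -0.69 and 0.71.

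The Ku genes come first in the end-joining pathway. Xrcc6, which encodes the smaller Ku subunit, was at 26.3, 27.5 and 30.7 CPM in mutants, against 31.4, 36.3 and 35.9 CPM in wild-type siblings. In CPM, which are scaled by the library total alone, the mutant libraries were all lower. The margin was small, with mutant replicate 3 at 30.7 CPM and wild-type replicate 1 at 31.4 CPM. The log2 fold change of -0.19 had an interval from -0.39 to 0.01 (edgeR adjusted p 0.121). Xrcc5, which encodes the larger subunit, was at 31.6, 31.0 and 28.6 CPM in mutants, against 20.6, 26.4 and 30.4 CPM in wild-type siblings. Here the groups overlapped, wild-type replicate 1 was the lowest library, and the log2 fold change of 0.34 (95% confidence interval 0.03 to 0.66) had an edgeR adjusted p of 0.0896. The 2 subunits work as a pair, and their log2 fold changes had opposite signs without passing the test. Counts of xrcc6 per count of xrcc5 were 0.832, 0.889 and 1.07 in mutants and 1.52, 1.38 and 1.18 in wild type. Neither subunit was called, although xrcc5 passed without wild type replicate 3 and xrcc6 passed without scaling factors.

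The genes of both end-processing enzymes had lower means in mutants. Prkdc, the gene of the catalytic subunit of the DNA-dependent protein kinase, was at 56.8, 65.2 and 60.1 CPM in mutants, against 84.8, 97.3 and 80.0 CPM in wild-type siblings, with no overlap. Its log2 fold change was -0.42 with an SE of 0.0868 (edgeR adjusted p 0.00625), which leaves 74.7% of the wild-type level (95% confidence interval 65.1% to 85.7%). It was the only end-joining gene called lower, and it kept its call in each fit without 1 library. Dclre1c was at 11.4, 11.2 and 10.83 CPM in mutants, against 12.97, 14.6 and 13.7 CPM in wild-type siblings. The mutant libraries were again all lower in CPM, with a log2 fold change of -0.19 that was not called (95% confidence interval -0.43 to 0.04, edgeR adjusted p 0.185).

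The ligation genes gave a mixed picture. Nhej1, which encodes the ligase cofactor XLF, was at 13.5, 12.96 and 14.4 CPM in mutants, against 10.1, 10.3 and 12.7 CPM in wild-type siblings. The log2 fold change was 0.41 with an SE of 0.122 (edgeR adjusted p 0.0313), or 133% of the wild-type level (95% confidence interval 110% to 161%). This call rested on the full set of libraries: it was lost in 5 of the 6 fits that left out 1 library, with adjusted p-values from 0.0523 to 0.104, and without scaling factors, at 0.0917. Xrcc4, the scaffold of the ligase complex, was at 7.29, 6.90 and 7.90 CPM in mutants, against 6.61, 5.00 and 7.26 CPM in wild-type siblings, which overlapped. Its log2 fold change of 0.33 was not called (95% confidence interval -0.06 to 0.71, edgeR adjusted p 0.168). Lig4 was at 4.97, 5.97 and 9.12 CPM in mutants, against 7.35, 8.96 and 8.73 CPM in wild-type siblings, with mutant replicate 3 the highest of all 6 libraries. Its log2 fold change was -0.23 with the widest interval of the end-joining genes, from -0.69 to 0.24 (edgeR adjusted p 0.421). The intervals of xrcc4 and lig4 reach 164% and 62.0% of the wild-type level, so no change and changes up to those limits both lie within them.

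The contrast between the gene groups was then taken within each library, as the mean log2 CPM of rag1, rag2 and dntt minus that of the 7 end-joining genes. The difference was -3.25, -1.73 and -2.54 in the mutant libraries and 0.49, 0.28 and 0.59 in the wild-type libraries. The mean of the end-joining genes was 4.12 ± 0.0467 in mutants, against 4.12 ± 0.0922 in wild-type siblings (SD, n = 3 in both), while that of the lymphocyte-restricted genes was 1.62 ± 0.737 in mutants and 4.57 ± 0.209 in wild type. Since the mean over the end-joining genes averages genes whose changes lie on both sides of 0, it does not describe each gene. The median log2 fold change was -3.01 over the lymphocyte-restricted genes, -0.19 over the end-joining genes and -0.01 over all genes tested.

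**Figure D3:**
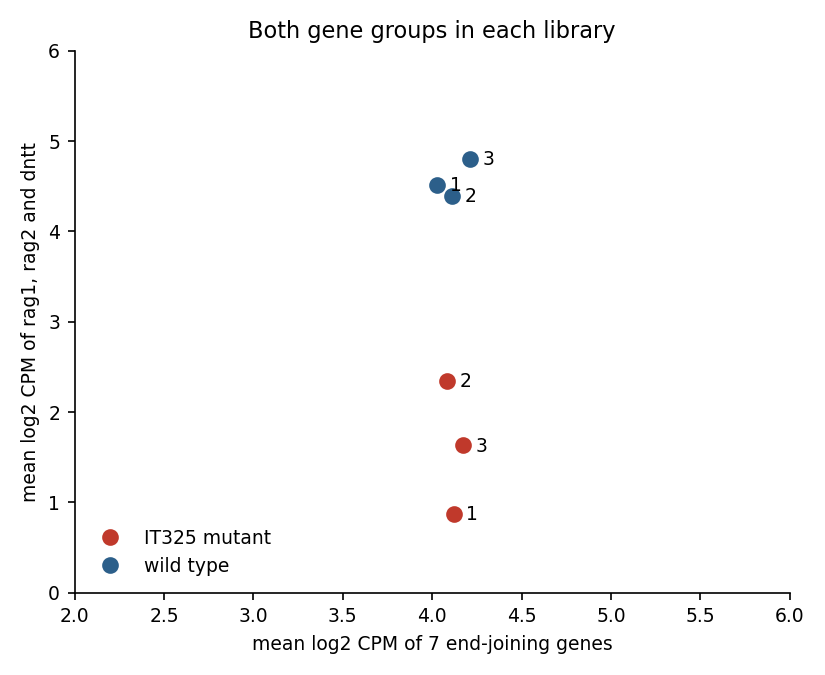
Mean log2 CPM of rag1, rag2 and dntt (vertical axis) against that of the 7 end-joining genes (horizontal axis) in each library, with IT325 mutants in red, wild type in blue and numbers for replicates. The mutant libraries lie at 0.87 to 2.35 on the vertical axis and the wild-type libraries at 4.39 to 4.80, while all 6 lie between 4.03 and 4.21 on the horizontal axis.

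Most listed T and B cell markers were lower in mutants, as rag1 was. The lists are not limited to the immature cells that use the recombinase. Of 15 tested T cell markers, 12 were called lower and 1 higher (cd247, at 1.59 on the log2 scale). Cd247l, at -0.73, and itk, at 0.36, were not called. Fewer were called lower in some alternatives: 8 of 16 tested without mutant replicate 1 or mutant replicate 3, and 9 of 16 with no filter. Without scaling factors, 13 of 15 were called lower. Lck kept its call in 11 of 14 alternatives and zap70 in 8 of 14. The median log2 fold change of the T cell markers was -1.11, beside -3.01 for rag1. Single markers ranged from -3.41 for cd8a, as large a fall as that of rag1, to 1.59 for cd247. Cd8a was scarce, with 4, 6 and 4 counts in mutants, against 45, 77 and 30 counts in wild type. Their summed level was 376 to 408 CPM in mutants and 604 to 823 CPM in wild type. Of this sum 63.3% to 75.2% was ptprc, which is made by leukocytes in general. Of 8 tested B cell markers, 7 were called lower and 1 higher (cd22), with a median of -3.33 and a summed level of 79.0 to 135 CPM in mutants and 642 to 716 CPM in wild type. Among them the B cell receptor component cd79b was at 7.61 ± 4.27 CPM in mutants, against 98.2 ± 10.2 CPM in wild-type siblings (SD, n = 3 each), or -3.61 on the log2 scale (edgeR adjusted p 0.003). As a share of the summed T cell markers, rag1 counts were 1.20%, 3.93% and 1.95% in mutants and 11.9%, 8.83% and 14.3% in wild type. Relative to lck, zap70 and il7r alone, which leaves out ptprc, rag1 counts were 15.0%, 51.0% and 37.3% in mutants and 124%, 78.8% and 187% in wild type. As a share of the summed B cell markers, a comparison chosen after seeing the data, they were 5.69%, 11.9% and 5.68% in mutants and 12.5%, 10.2% and 13.2% in wild type, which overlapped. Cd22, the 1 B cell marker that rose, made up 22.5% to 37.7% of this sum in mutants and 0.840% to 1.77% in wild type. Without cd22, also left out after seeing the data, the sum was 49.2 to 104 CPM in mutants and 636 to 709 CPM in wild type, and rag1 counts were 9.13%, 15.3% and 8.16% of it in mutants and 12.6%, 10.2% and 13.4% of it in wild type. Thus rag1 was lower relative to the summed T cell markers, and to lck, zap70 and il7r, in each mutant library. Relative to the summed B cell markers the groups overlapped with or without cd22. The sums do not describe each marker, as cd8a shows. Erythroid and neutrophil markers rose: all 8 erythroid markers were called higher, with a median log2 fold change of 1.77, and all 5 neutrophil markers were called higher, with a median of 0.39 and a summed level of 26001 to 29531 CPM in mutants and 17922 to 18910 CPM in wild type. Macrophage markers were mixed: of 5 tested, 2 were called higher and 2 lower. Of 6 tested markers of NK-like cells, 2 were called lower and 0 higher. The shares called were 86.7% of T cell markers and 100% of B cell, erythroid and neutrophil markers, beside 33.9% of all genes. They were 80% of macrophage markers and 33.3% of markers of NK-like cells. The part of cell numbers in the changes of rag1, rag2 and dntt was not tested.

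Expression patterns most like those of the 2 gene groups were sought among 14508 other genes with a mean of at least 1 CPM, by Pearson correlation of log2 CPM over the 6 libraries. The libraries fall into 2 separate groups, so a high value mostly means a difference between the groups in the same direction, whatever its size. The nearest genes to rag1 were igl3c3, PRMT3, DGAT1, FOXP4 and MFSD4A, with correlations of 0.996 to 0.997. Igl3c3, an immunoglobulin light chain constant gene, was at 1.08, 3.90 and 1.95 CPM in mutants, against 34.3, 33.5 and 34.9 CPM in wild-type siblings. Its mutant libraries had the same order as those of rag1, which selection by correlation with rag1 makes likely. Among the members dntt ranked 15 by likeness to rag1 with a correlation of 0.995, rag2 ranked 100 with 0.986, and prkdc was the nearest end-joining gene, at rank 1543 with 0.907. Nhej1, at -0.88, was the farthest from rag1. The genes nearest to the mean of the end-joining genes were YME1L1, si:ch211-215p11.5, PSMA5, si:dkey-21e2.10 and tmem134, with correlations of 0.966 to 0.988, and none of these was called between the groups (edgeR adjusted p 0.709 to 0.999). Selection by correlation with a mean that hardly differed between the groups makes this likely, so nothing is read from it.

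Rag1 and rag2 lie side by side in vertebrate genomes, and in the table no row stood between them. Of the 5 annotated genes on each side in the reference annotation, 3 were matched in the table. Si:ch211-256a21.4, annotated as a non-coding RNA, was at 6.86, 7.34 and 3.94 CPM in mutants, against 17.2, 15.9 and 13.4 CPM in wild-type siblings. It was called lower, at -1.25 on the log2 scale (SE 0.243, edgeR adjusted p 0.006). Iftap, on the other side, was at 2.95, 2.43 and 1.59 CPM in mutants, against 2.01, 2.80 and 3.15 CPM in wild-type siblings, with a log2 fold change of -0.07 (95% confidence interval -0.77 to 0.62, edgeR adjusted p 0.871). The spans of iftap and rag2 overlap in the reference annotation, which is of another build than the one used for counting. Whether they overlap in the latter was not checked. The counter was run with default settings, which do not use strand, so reads from a shared stretch could not be assigned by strand. Accs was at -0.18 and was not called (edgeR adjusted p 0.151). Among the 16 tested genes nearest to the pair in the order of the table, 8 on each side and chosen after seeing the data, 5 were called higher and 2 lower, or 43.8%, against 33.9% of all genes. Both lower neighbours, si:ch211-256a21.4 and cox8b, changed by less than rag1 and rag2.

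**Figure D4:**
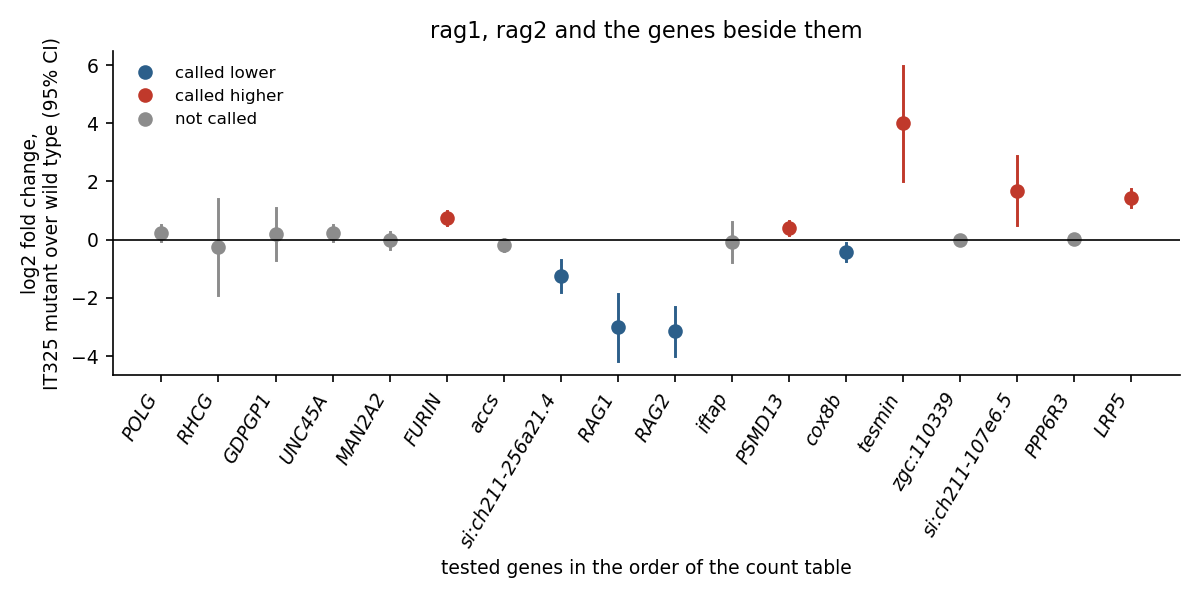
Log2 fold change, IT325 mutant over wild type, of rag1, rag2 and the 8 tested genes nearest to them on each side, in the order of the count table, with 95% confidence intervals from the edgeR fit. Blue genes were called lower, red genes higher, and grey genes were not called. RAG1, RAG2 and si:ch211-256a21.4 stand below 0 between accs and iftap, whose intervals include 0.

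Genes that regulate the rag genes in mammals were set beside them. Of 17 tested, 8 were called lower and 3 higher, a share of 64.7% beside 33.9% of all genes, with a median log2 fold change of -0.65. Pax5, which commits cells to the B lineage, was at 4.90 ± 3.24 CPM in mutants, against 58.9 ± 6.88 CPM in wild-type siblings, a log2 fold change of -3.52 with an SE of 0.594 (edgeR adjusted p 0.00862). Tcf12, an E protein that drives lymphocyte development, was at 9.46 ± 1.94 CPM in mutants, against 48.3 ± 0.981 CPM in wild-type siblings, a log2 fold change of -2.25 with an SE of 0.129 (edgeR adjusted p 9.48e-06). Also lower were satb1a at -1.52, bcl11aa at -1.49, tcf7 at -1.37, ets1 at -1.12, runx3 at -0.75 and gata3 at -0.74. The 3 called higher were ikzf1 itself at 2.21, spi1a at 0.68 and tcf3b at 0.22, while lef1 had the largest positive value, 2.46, without passing (edgeR adjusted p 0.0579). The call of spi1a was lost without each wild-type library in turn, and tcf3b kept its call in 5 of 14 alternatives. Without mutant replicate 1 or mutant replicate 3 the number called lower was 6, as runx3 and tcf7 lost their calls. Pax5, tcf7 and gata3 are also among the B and T cell markers above.

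Of 12 tested accessory factors of end joining, 2 were called lower and 1 higher, a share of 25% beside 33.9% of all genes. Paxx, a paralog of xrcc4 and nhej1 that stabilises Ku at ends, was at 3.94 ± 0.316 CPM in mutants, against 2.23 ± 0.366 CPM in wild-type siblings, a log2 fold change of 0.92 with an SE of 0.205 (edgeR adjusted p 0.00901). Aplf, a scaffold that binds Ku and the ligase complex, was at 2.77 ± 0.0890 CPM in mutants, against 5.40 ± 0.756 CPM in wild-type siblings, at -0.86 (SE 0.178, edgeR adjusted p 0.00651). Dclre1a, an Artemis relative that acts on crosslinks, was called at -0.32 and lost its call in 10 of 14 alternatives. Of the polymerases that fill gaps at joins, polm changed by 0.40 and poll by -0.01, and neither was called. The HMGB proteins bend recombination signals for the recombinase. The most abundant of them, hmgb2a, was at 919 ± 49.3 CPM in mutants, against 849 ± 67.0 CPM in wild-type siblings and was not called (edgeR adjusted p 0.0865), while hmgb1b was called lower at -0.41 (edgeR adjusted p 0.0161). Kpna2, an importin that binds Rag1 in mammals, was called higher at 0.34 (edgeR adjusted p 0.0185). Neither call held in all alternatives: hmgb1b lost it without mutant replicate 2, mutant replicate 3 or wild type replicate 2, and kpna2 without mutant replicate 1, without wild type replicate 1, without scaling factors and with the replicate block.

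Of 13 tested genes that sense and signal breaks, 5 were called lower and 2 higher, a share of 53.8% beside 33.9% of all genes, with a median log2 fold change of -0.15. H2ax, the histone variant that is phosphorylated around breaks, was at 30.8 ± 2.95 CPM in mutants, against 85.4 ± 7.74 CPM in wild-type siblings, a log2 fold change of -1.37 with an SE of 0.0867 (edgeR adjusted p 1.44e-05). It had the largest change of any tested repair gene outside the 3 lymphocyte-restricted ones. The kinases atm and atr, which start the damage response, were called lower at -0.65 each (edgeR adjusted p 0.0023 and 0.00231). Rif1, which limits the trimming of ends, was called lower at -0.23. Higher were nbn, part of the complex that first binds breaks, at 0.42 (edgeR adjusted p 0.0153), and the ubiquitin ligase rnf8 at 0.31 (edgeR adjusted p 0.0277). H2ax, atm and atr were called in every alternative. Nbn, rnf8 and rif1 each lost their calls when some libraries were left out, so that 4 or 5 genes were lower and 0 to 2 higher in the fits without 1 library.

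Other repair routes do not serve V(D)J joining in normal cells. Of 10 tested genes of alternative end joining, 1 was called, a share of 10% beside 33.9% of all genes. This gene was parp2, at 0.26, and it kept its call in 5 of 14 alternatives. Polq, the polymerase that defines this route, was at 103 ± 6.46 CPM in mutants, against 107 ± 5.46 CPM in wild-type siblings, with a log2 fold change of 0.05 (edgeR adjusted p 0.659). The fold change used scaling factors and the CPM did not, so they can differ in sign. Of 15 genes of homologous recombination, 5 were called higher and 1 lower, a share of 40% beside 33.9% of all genes. The largest changes among the called genes were those of rpa3, a subunit of the single-strand binding protein, at 0.61, the strand-exchange motor rad54l at 0.48 and the helicase blm at 0.41 (edgeR adjusted p 0.0164 to 0.0229), and the lower gene was brca2 at -0.30. The number called higher was 2 without scaling factors and 1 to 6 without 1 library, lowest without mutant replicate 1. Of 13 genes of mismatch and base excision repair, pms2 was called higher at 0.45, a call lost without wild type replicate 1, and apex1 lower at -0.40, a call lost in 8 of 14 alternatives. The share called was 15.4%, below the 33.9% of all genes. End-joining genes are used in cycling and resting cells alike. Of 14 replication and proliferation genes, 3 were called higher (cdk1 at 0.57, tyms at 0.50 and rrm1 at 0.28) and 0 lower at the same threshold or at an unadjusted p of 0.05, with a median of 0.09 that turned to -0.02 without scaling factors. Their share called was 21.4%, also below the 33.9% of all genes. Pcna was at 249 ± 13.4 CPM in mutants, against 276 ± 32.4 CPM in wild-type siblings and was not called (edgeR adjusted p 0.769).

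**Figure D5:**
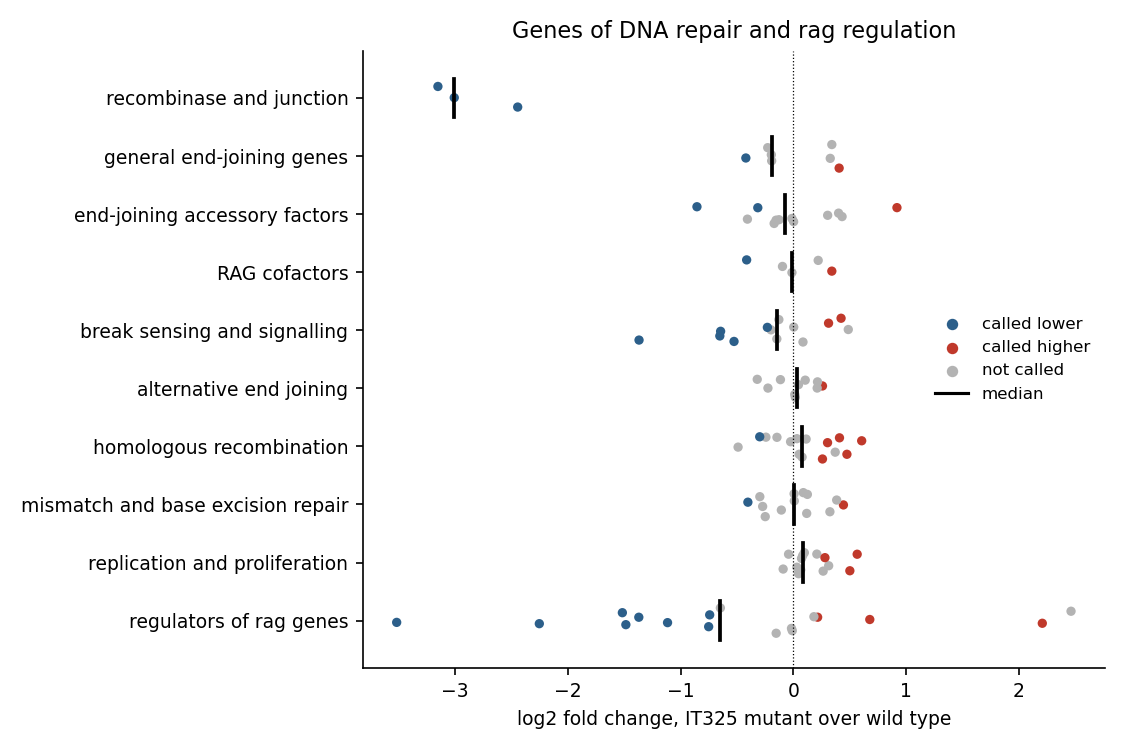
Log2 fold change, IT325 mutant over wild type, of the tested genes of each list, with 1 point per gene, coloured blue where called lower, red where called higher and grey where not called, and a black line at the median. The recombinase and junction genes lie at -3.15 to -2.45, the general end-joining genes at -0.42 to 0.41, and the regulators of rag genes spread from -3.52 to 2.46.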

How the data were processed

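Stranded libraries were built from poly-A selected RNA. Paired-end reads were aligned by the authors with STAR 2.5.2b-1, using the Ensembl annotation Zv10.85, and counted per gene with featureCounts 1.6.0.1. The deposited values are raw counts, with no scaling, and all 6 columns were used. Symbols came from a table of gene names, which covered 81.8% of the 32105 genes, and a RefSeq annotation of another build (GRCz12tu) was used for synonyms, gene order and neighbours only. Of 245 list entries, 201 were matched, 10 of them by synonym, and the others were left out. No length per transcript was used, so ratios, shares and ranks between genes compare counts and not numbers of transcripts.

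Genes were tested in edgeR 4.0.16 (R 4.3.3): filterByExpr with its minimum count of 10, TMM scaling, a robust quasi-likelihood fit without covariates, two-sided p-values adjusted by Benjamini-Hochberg over 17828 genes, and 95% confidence intervals from the fit. CPM are counts scaled to 1000000 per column, given with the SD over 3 libraries, and log2 CPM used TMM with a prior count of 2. Fold changes used TMM and CPM did not, so a fold change can differ from the ratio of mean CPM. Overlap of the groups was judged on these CPM. Over all genes the median log2 fold change was -0.01 with TMM and -0.11 without scaling factors. Total counts of 37390073 to 53279243 per library set the counting precision. The steps were tested on simulated data, in which far fewer genes changed than here and equal numbers rose and fell. Scaling under shifts as broad as those in these libraries was therefore not tested. The alternatives were other scalings and filters, DESeq2 1.42.0 (Wald test), an adjusted p under 0.01, a block on the replicate number and fits without each library. The members and gene lists were chosen with earlier results of these data known. Named list genes are up to 3 called genes with the largest change in each list and, for some lists, the most abundant gene. The most abundant genes dclre1b, rpa1 and msh6 of their lists are not described. Further list genes were named after their values were seen. The values of 1 list gene are not reported here.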

Additional observations from a re-analysis of the deposited data

How the results depend on the processing

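Calls of rag1, rag2, dntt and prkdc held in all 15 alternatives. Without 1 library the log2 fold changes ranged from -3.62 to -2.68 for rag1, -3.41 to -2.82 for rag2, -2.93 to -2.16 for dntt, -0.48 to -0.35 for prkdc, 0.21 to 0.47 for xrcc5, -0.25 to -0.16 for xrcc6, -0.48 to -0.07 for lig4, 0.18 to 0.44 for xrcc4, -0.24 to -0.14 for dclre1c and 0.35 to 0.52 for nhej1. In these fits all 3 recombinase genes and 1 end-joining gene stayed called lower, and 0 to 2 end-joining genes were called higher: 0 in 5 fits, and 2 without wild type replicate 3, where xrcc5 passed (adjusted p 0.0251). Without scaling factors 2 end-joining genes were lower and 0 higher, since xrcc6 passed at -0.29 (adjusted p 0.048) and nhej1, at 0.30, did not; this setting moved the median of all genes to -0.11, against -0.01. At an adjusted p under 0.01, nhej1 (0.41) lost its call, 0 end-joining genes were higher, and 3419 genes of the whole table were called, 1834 higher and 1585 lower, against 6039. Without 1 library 4587 to 5978 genes were called. The contrast of recombinase with end-joining genes, mutant minus wild type, ranged from -3.35 to -2.59 without 1 library. The log2 ratio of rag1 per marker count was -2.31 with T cell markers, -0.62 with B cell markers and -0.15 with B cell markers without cd22, the last 2 chosen after seeing the data. Relative to lck, zap70 and il7r alone, rag1 counts averaged 34.4% in mutants and 130% in wild type. Relative to all T cell markers they averaged 2.36% in mutants and 11.7% in wild type. The cause of these moves was not tested.

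Deviations of libraries with the same replicate number correlated at 0.0559, 0.122 and 0.0939. Libraries with unlike numbers were not compared, so these values do not decide whether the numbers pair the libraries. With the replicate block rag1 was at -3.16, and the calls of all 10 members were as without it.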

Other observations

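The row just before dntt in the table, ENSDARG00000038540, has no gene name in the list used. Its levels were 0.264, 0.491 and 0.281 CPM in mutants, against 1.93, 1.31 and 2.59 CPM in wild-type siblings, a log2 fold change of -2.40 (edgeR adjusted p 0.00278) beside -2.45 for dntt. Of the 10 tested genes nearest to dntt in the table, 5 on each side, 5 were called lower, 1 was called higher and 4 were not called, a share of 60% called beside 33.9% of all genes. Those called lower include blnk, an adaptor of B cell receptor signalling, at -1.86, and si:ch73-198l11.2 at -1.94. These genes were chosen after their values were seen.

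Larval T cells rearrange their receptor genes in the thymus. Of 4 tested markers of thymic epithelium, 3 were called higher in mutants, a share of 75% beside 33.9% of all genes. Foxn1 passed the filter on low counts only through its mutant libraries. The share was therefore partly set by the filter, and nothing is read from it. Foxn1 had 21, 10 and 44 counts in mutants, against 0, 0 and 4 counts in wild-type siblings, and lost its call without mutant replicate 3 (edgeR adjusted p 0.015 with all libraries). The epidermal keratin gene krt91 was also called higher. Its levels were 0.60, 0.29 and 1.83 CPM in mutants, against 0.13, 0.25 and 0.26 CPM in wild-type siblings. Krt91 kept its call in 7 of 14 alternatives, and the other 3 tested epidermal markers were not called. Whether the foxn1 counts come from thymus was not tested. Cxcl12a and dll4, which other stromal and vascular cells also make, were at 2.04 and 1.92 on the log2 scale.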
